A study of Drosophila melanogaster with 12 samples.

Results

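The genes described here encode 10 glutathione S-transferases (GSTs) of the fruit fly Drosophila melanogaster that lie outside the large Delta and Epsilon classes. They are the microsomal enzyme Mgstl, the Sigma class gene GstS1, the Omega class genes GstO1, GstO2, GstO3 and se, the Theta class genes GstT1 and GstT4, and the Zeta class genes GstZ1 and GstZ2. They were chosen by name and class, with earlier results of these data known. The Theta genes GstT2 and GstT3, which also lie outside Delta and Epsilon, are not among them. All 10 were found among the 16191 loci of the deposited table, each at 1 locus of its own.

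GSTs join glutathione, a small thiol, to reactive and often toxic compounds so that these can be cleared, and many also reduce peroxides. Mgstl is related to the mammalian microsomal GSTs, which sit in the membranes of the endoplasmic reticulum and share no fold with the soluble classes. GstS1 is known in flies as an abundant enzyme of flight muscle that conjugates the lipid peroxidation product 4-hydroxynonenal. Omega enzymes carry a cysteine at the active site and act as thiol transferases and dehydroascorbate reductases, and the Omega gene se (sepia) encodes the enzyme that makes a precursor of the red drosopterin eye pigments. Zeta enzymes are the maleylacetoacetate isomerases of phenylalanine and tyrosine breakdown. Theta enzymes are best known from mammals, where they act on small halogenated compounds.

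Oenocytes are cells under the cuticle of the abdomen that make cuticular hydrocarbons and pheromones and share lipid-handling roles with the liver. The study used RiboTag, in which ribosomes of chosen cells carry a tagged protein and are pulled down with their mRNA. All females carried PromE-Gal4, which drives expression in oenocytes, and UAS-RpL13A-FLAG, which encodes the tagged ribosomal protein, and FLAG-bound ribosomes were recovered from lysates of whole frozen flies. There were 4 groups of 3 libraries. Young flies were sampled 14 days after eclosion, on water (H2O-Young, the young controls) or on 10 mM paraquat (PQ-Young), and aged flies 28 days after eclosion, again on water (H2O-Aged, the aged controls) or on 10 mM paraquat (PQ-Aged). Paraquat is a herbicide that cycles electrons to oxygen and so makes superoxide. Water or paraquat was dried on the food, and exposure lasted 24 h. Ages are those of the sample labels. The published methods give a lower age for the young flies and a higher one for the aged flies, and so a wider gap between them. Only females were used, each library pooled many of them, and no flies without the driver were among the samples used here.

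The level given for each gene is FPKM, the number of sequenced fragments scaled to transcript length and library size, and the table holds 1 value per gene and group that Cuffdiff made from all 3 libraries. The table therefore gives neither the spread between libraries nor their depth, and no test was run. The published principal component plot shows a library of young controls apart from the others of its group, and its weight in the pooled values could not be examined here. Every fold change is a description of these pooled values with no replicate check, and neighbouring levels cannot be told apart or shown to be alike. A fold of at least 2 with at least 1 FPKM in one of the groups compared was counted as past 2-fold.

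The groups differed widely in many abundant mRNAs. Summed FPKM over all loci was 1692800 in young controls, 1251740 in young paraquat flies, 770190 in aged controls and 768652 in aged paraquat flies, and 87 loci marked as having too many fragments to quantify were left out. The oenocyte markers were well represented in the young flies and lower in the aged ones. Their sum over 8 loci was 41073 in young controls, 22053 in young paraquat flies, 5864 in aged controls and 4965 in aged paraquat flies, and 6 of the 8 were past 2-fold lower with age in water. The defining marker Cyp4g1 was among the loci left out and was listed at 0. In bulk samples such as these, fewer cells of a type and less RNA per cell cannot be told apart. Markers of other tissues differed between groups too. Of 6 germline genes, 3 were past 2-fold higher with age in water and none lower, with a median log2 fold change of 1.15 and sums of 301 FPKM in young and 451 in aged controls. Other sums ran from 13599.8 in young controls to 1854 in aged controls over 8 eggshell genes, from 9093 to 2256 over 6 midgut genes and from 21464 to 2148 over 5 fat body and yolk genes, and every one of these genes was past 2-fold lower with age in water. Beside these counts, 23.4% of all protein-coding loci were past 2-fold lower with age in water and 13.5% past 2-fold higher. Of loci with a mean of at least 100 FPKM, 44.2% were past 2-fold lower.

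The members covered a wide range of levels. In young controls the order from high to low was Mgstl, GstO3, GstO2, GstT4, GstT1, GstZ1, GstO1, se, GstS1 and GstZ2, and in aged paraquat flies it was GstO3, Mgstl, GstO2, GstT1, GstO1, GstS1, GstT4, GstZ1, se and GstZ2. Mgstl was the second most abundant of the 13299 protein-coding loci in young controls, apart from those left out, while GstZ2 stayed between 1.27 and 2.50 FPKM. Of the 10 genes, 6 were highest in young controls and 5 were lowest in aged paraquat flies. The summed FPKM of all loci was also highest and lowest in these groups, and the same count over all loci was not made.

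**Figure D1:**
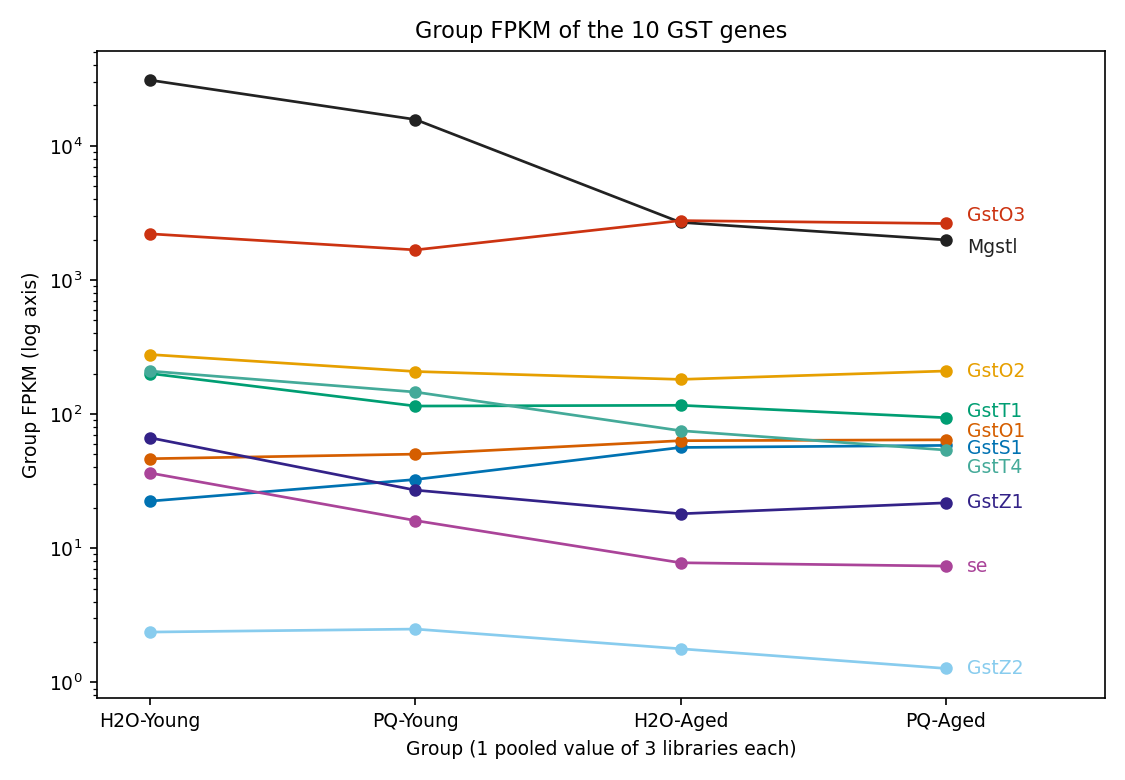
Group FPKM (log axis) of the 10 genes in the 4 groups, with 1 point for each pooled group value and no error because the values pool 3 libraries. Mgstl is at 30828 FPKM in H2O-Young and 1988 in PQ-Aged and lies below GstO3 in the aged flies, while GstZ2 stays below 2.51 FPKM throughout.

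Mgstl (X:21042125-21044107, plus strand, dm6) had the highest level of the 10 in young flies and the largest fold difference with age. Its level was 30828 FPKM in young controls, 15689.6 in young paraquat flies, 2685 in aged controls and 1988 in aged paraquat flies. Both aged groups were far below both young groups, and each paraquat group was below its water group. With age the level was 11.5-fold lower in water and 7.89-fold lower in paraquat, and with paraquat it was 1.96-fold lower in young flies, just short of 2-fold, while its log2 fold change in aged flies was -0.43. The log2 fold change with paraquat in young flies was -0.97 as deposited, past 2-fold at -1.08 when scaled to Gapdh1 and only -0.20 after quantile normalization. Its lower level with age kept its direction and stayed past 2-fold under each of 4 other scalings of the groups, with a log2 fold change between -3.52 and -1.84 in water. Its rank among protein-coding loci went from 2 in young controls and 3 in young paraquat flies to 33 in aged controls and 64 in aged paraquat flies. The ratio of its highest to its lowest group value was 15.5, larger than that of 98.3% of loci. Mgstl alone made up 1.82% of all summed FPKM in young controls and 0.259% in aged paraquat flies.

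The genes that lie on either side of Mgstl did not share this pattern. Ntf-2, which encodes a nuclear transport factor, had 306 FPKM in young controls, 312 in young paraquat flies, 307 in aged controls and 239 in aged paraquat flies. Cbs, which encodes cystathionine beta-synthase, had 87.2, 102, 81.8 and 63.9 FPKM in the same order of groups. Neither was past 2-fold in any of the 4 comparisons.

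The loci with the profile most like that of Mgstl, by the distance between mean-centred log2 FPKM over the 4 groups among 4930 loci, were eloF and CG4020. eloF encodes a fatty acid elongase of female pheromone synthesis, and its FPKM was 7317, 3849, 629.8 and 444 in young controls, young paraquat flies, aged controls and aged paraquat flies. CG4020 belongs to the fatty acyl-CoA reductases, and its FPKM was 7898, 3941, 716 and 453. The distances were 0.096 and 0.167 log2 units, over only 4 points, and eloF is also one of the oenocyte markers. Relative to the 8 oenocyte markers summed, Mgstl stood at 0.751 in young controls, 0.711 in young paraquat flies, 0.458 in aged controls and 0.400 in aged paraquat flies, so it was lower in aged flies against this sum, the largest part of which is desatF (15747 FPKM in young controls). Against single markers this did not hold throughout, since with age in water CG18609 (log2 fold change -4.63) and eloF (-3.54) were lower by more than Mgstl (-3.52). The part of these markers in the difference was not tested, nor that of the eggshell, midgut and fat body markers that were also lower with age.

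**Figure D2:**
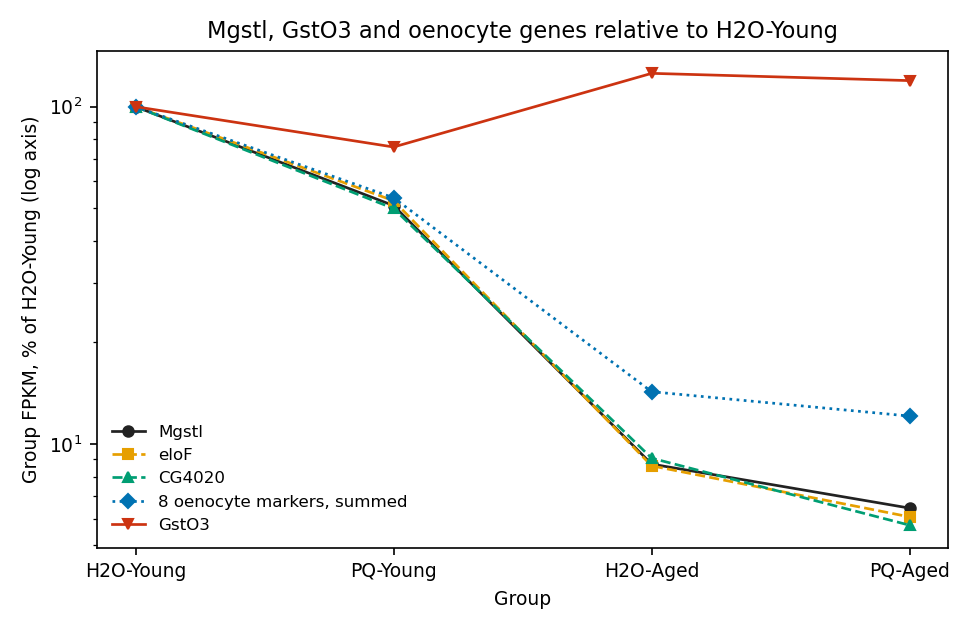
Group FPKM as percent of the H2O-Young value (log axis) for Mgstl, GstO3, eloF, CG4020 and the sum of 8 oenocyte markers, 1 pooled value per group. Mgstl, eloF and CG4020 lie close together (Mgstl at 8.71% in H2O-Aged), the summed markers are at 14.3% there, and GstO3 lies above all of them in the other 3 groups.

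GstS1 (2R:17093246-17099501, minus strand), the single Sigma gene, had the opposite order. Its level was 22.5 FPKM in young controls, 32.5 in young paraquat flies, 56.4 in aged controls and 58.4 in aged paraquat flies. The aged groups were above the young ones and close to each other. It was 2.51-fold higher with age in water, the 1 member past 2-fold in that direction, and it stayed so under every scaling tried (log2 fold change 1.33 to 2.46). In paraquat the log2 fold change with age was 0.84, which did not reach 2-fold. Because GstS1 is known from muscle, the muscle markers are given beside it. The 7 muscle loci not marked as too abundant summed to 250 FPKM in young controls, 289 in young paraquat flies, 255 in aged controls and 230 in aged paraquat flies, highest in young paraquat flies. With age in water 1 of 6 compared, Act88F, was past 2-fold higher (log2 fold change 1.41), and the median of the 6 was 0.61. The marker sls was among the loci marked as having too many fragments and stood at 0 in the aged groups. The locus up held 161 of the 250 FPKM in young controls and was lower with age (log2 fold change -0.93). Without it the other 6 loci summed to 88.5, 160.2, 170.1 and 143 FPKM in the same order of groups. This sum was higher with age in water, as GstS1 was, but lower with age in paraquat, where GstS1 was higher. The median log2 fold change of the 7 muscle loci with age in paraquat was -0.30. The part of muscle and of the germline markers in the difference of GstS1 was not tested. The profiles nearest to GstS1 were those of Ubc4, a ubiquitin-conjugating enzyme, with 36.1, 53.0, 89.95 and 94.8 FPKM, and Sil1, a nucleotide exchange factor of the endoplasmic reticulum, with 11.5, 16.3, 29.2 and 28.4 FPKM.

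The 4 Omega genes lie side by side on 3L within 5982 bases. From left to right the order is GstO3 (3L:8518885-8520295, plus strand), se (3L:8520552-8521489, plus), GstO2 (3L:8521429-8523501, minus) and GstO1 (3L:8523742-8524866, minus). GstO3 and se are 256 bases apart and GstO2 and GstO1 240 bases. The exons of se and GstO2 overlap by 61 bases on opposite strands, 7.39% of the exonic bases of se, and it is not given whether the counting used strand, so a few reads there may belong to either gene.

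GstO3 was the leading Omega gene, with 2205 FPKM in young controls, 1674 in young paraquat flies, 2768 in aged controls and 2634 in aged paraquat flies. It was highest in the aged flies and lowest in young paraquat flies, but no comparison reached 2-fold as deposited, and its direction with paraquat turned under other scalings in both ages. It made up 85.9% of the Omega FPKM in both young groups, 91.6% in aged controls and 90.4% in aged paraquat flies. GstO3 ranked 164 among protein-coding loci in young controls and 30 in aged controls. Many abundant genes had lower levels in aged flies, and among loci with a mean of at least 100 FPKM, 44.2% were past 2-fold lower with age in water.

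GstO2 had 278 FPKM in young controls, 208 in young paraquat flies, 181 in aged controls and 209 in aged paraquat flies. The young water group was the highest, and the other groups were close together. GstO1 had 46.5, 50.3, 63.3 and 64.3 FPKM in the same order, slightly higher in the aged flies. Neither gene was past 2-fold in any comparison as deposited, and GstO2 turned from a log2 fold change of -0.61 with age in water to 0.52 when the groups were scaled to equal summed FPKM.

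The Omega gene se had the largest differences of the cluster with age in water as deposited, although GstO1 and GstO3 exceeded it, in the other direction, when summed FPKM was set equal. It had 36.4 FPKM in young controls, 16.1 in young paraquat flies, 7.80 in aged controls and 7.36 in aged paraquat flies. Young controls were the highest, young paraquat flies were intermediate and both aged groups were low. With age se was 4.66-fold lower in water and 2.18-fold lower in paraquat, and with paraquat it was 2.26-fold lower in young flies and 1.06-fold lower in aged flies. With equal summed FPKM the log2 fold change with paraquat in young flies was -0.74 and that with age in paraquat was -0.42, both short of 2-fold. Within a group, where a constant scaling cancels, GstO3 stood 60.6 times above se in young controls, 104 times in young paraquat flies, 355 times in aged controls and 358 times in aged paraquat flies. Quantile normalization, which is not a constant scaling, gave 39.6, 89.4, 647 and 624 times, again higher in aged flies. By the same measure GstO1 stood at 1.28 times se in young controls and at 8.12 times in aged controls.

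Since se acts in pteridine pigment synthesis and its product is best known in the eye, other genes of that pathway and eye markers were read beside it. Of 5 pteridine genes, 3 were past 2-fold lower with age in water, beside 23.4% of all loci and 44.2% of the abundant ones, and none was past 2-fold with paraquat in young flies, where 8.42% of loci were lower. Sptr, sepiapterin reductase, had a log2 fold change with age in water of -1.54, pr (purple), which makes the tetrahydropterin precursor, of -1.23, and cl (clot), a thioredoxin-like protein needed for drosopterin, of -1.09. Equal summed FPKM adds 1.14 to each log2 fold change with age in water, which leaves none of them past 2-fold (Sptr -0.40, pr -0.09 and cl 0.04). Pu (Punch), the GTP cyclohydrolase that opens the pathway, had -0.72. The 5 eye pigment genes outside that pathway summed to 91.8, 85.8, 85.4 and 70.0 FPKM in young controls, young paraquat flies, aged controls and aged paraquat flies. Of the 91.8, 72.3 came from the locus of w (white), which is shared with CG32795. The published methods list a w* allele in the driver stock, and the part of the fly stocks in the level at this locus was not tested. Of 4 compared, only st (scarlet), a pigment transporter gene, was past 2-fold lower with age in water (log2 fold change -1.95), as se was. Like se, st was also past 2-fold lower with paraquat in young flies (-1.43), on 2.51 FPKM in young controls. Of all loci, 23.4% and 8.42% were past 2-fold lower in these comparisons. The other 3 were within 2-fold in both, and the medians of the 4 were -0.07 and -0.04. With paraquat in aged flies st was past 2-fold higher, while se was within 2-fold. The defining marker cn (cinnabar) was listed at 0 in young controls. The 9 photoreceptor genes summed to 620.3, 1346, 499.7 and 377 FPKM in that order. With age in water 3 of the 9 were past 2-fold lower (median log2 fold change -0.75), beside 23.4% of all loci. With age in paraquat 7 of the 9 were past 2-fold lower (median -1.41), beside 13.7% of all loci. Both medians lie in the direction of se. With paraquat in young flies 4 were past 2-fold higher, against the direction of se, beside 2.55% of all loci. The part of eye tissue in the level of se was not tested.

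The Theta genes GstT1 (2R:9605988-9607184, plus strand) and GstT4 (X:13404749-13409323, plus strand) lay close together in young controls and apart in aged flies. GstT1 had 201 FPKM in young controls, 115 in young paraquat flies, 116 in aged controls and 94.0 in aged paraquat flies. GstT4 had 209 FPKM, 146, 75.2 and 54.0 in the same order. For GstT1 the single young water group stood above the other groups, and for GstT4 the level stepped down with age and, within each age, with paraquat. GstT4 was 2.78-fold lower with age in water and 2.70-fold lower in paraquat, and GstT1 was past 2-fold in neither (log2 fold changes -0.79 and -0.29). Scaling to equal summed FPKM moved GstT4 to a log2 fold change of -0.34 with age in water and turned GstT1 to 0.35. Within a group GstT4 stood at 1.04 times GstT1 in young controls, 1.27 times in young paraquat flies, 0.647 times in aged controls and 0.574 times in aged paraquat flies, and after quantile normalization at 1.04, 1.28, 0.607 and 0.538 times.

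The remaining Theta genes, which were not among the members, also differed from each other. GstT3 on X had 420 FPKM in young controls, 356 in young paraquat flies, 171 in aged controls and 153 in aged paraquat flies, and its ratio to GstT4 stayed between 2.01 and 2.84. GstT2, which starts 107 bases after GstT1 on the same strand, had 61.1, 61.4, 77.5 and 74.8 FPKM. The ratio of GstT1 to GstT2 was 3.28 in young controls and 1.26 in aged paraquat flies, so these adjacent genes differed in their pattern. The profile nearest to GstT4 was that of Jheh2, a juvenile hormone epoxide hydrolase, with 232 FPKM in young controls, 164 in young paraquat flies, 85.9 in aged controls and 62.4 in aged paraquat flies.

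The Zeta genes GstZ1 (3R:9455517-9456546, minus strand) and GstZ2 (3R:9456815-9460652, minus strand) are 268 bases apart. GstZ1 had 66.5 FPKM in young controls, 27.1 in young paraquat flies, 18.1 in aged controls and 21.8 in aged paraquat flies. The young water group stood apart, with the young paraquat group nearer to the aged ones. GstZ1 was 3.68-fold lower with age in water, 2.45-fold lower with paraquat in young flies and, in the opposite direction, had a log2 fold change of 0.27 with paraquat in aged flies. With equal summed FPKM the first of these was a log2 fold change of -0.74 and the second of -0.86, both short of 2-fold. GstZ2 had 2.37, 2.50, 1.78 and 1.27 FPKM, near the lowest level compared, and was past 2-fold in no comparison. The ratio of GstZ1 to GstZ2 was 28.0 in young controls, 10.9 in young paraquat flies, 10.1 in aged controls and 17.1 in aged paraquat flies.

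The other genes of phenylalanine and tyrosine breakdown were low. Their 5 levels summed to 38.7 FPKM in young controls, below GstZ1 alone. With age in water 2 were past 2-fold lower, Hn (Henna), the phenylalanine hydroxylase, at a log2 fold change of -1.06 and Faa, fumarylacetoacetase, the enzyme that follows GstZ1 in the pathway, at -1.08. One gene, hgo, homogentisate dioxygenase, the enzyme before it, was past 2-fold higher at 1.27 but rested on 0.708 and 1.71 FPKM. Of all loci, 23.4% were past 2-fold lower with age in water and 13.5% past 2-fold higher. Hn and Faa turn above 0 with equal summed FPKM. With paraquat in young flies none of the 5 was past 2-fold, where GstZ1 and 8.42% of all loci were past 2-fold lower.

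Set side by side, the 4 comparisons gave the following counts. With age in water 4 of the 10 genes were past 2-fold lower (Mgstl, se, GstT4 and GstZ1) and 1 was past 2-fold higher (GstS1), where 23.4% of 9050 protein-coding loci were past 2-fold lower and 13.5% past 2-fold higher. The median log2 fold change of the members was -0.70, and that of all loci was -0.11. Among loci with a mean of at least 100 FPKM the median was -0.85 and 44.2% were past 2-fold lower, and 3.02% higher. The members' count of lower genes lies near that of these abundant loci. Mgstl and GstT4 are among them, but se and GstZ1 are below 100 FPKM in every group. With equal summed FPKM the counts were 2 lower and 3 higher.

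With paraquat in young flies 2 of the 10 were past 2-fold lower (se and GstZ1) and 0 past 2-fold higher, beside 8.42% and 2.55% of 9024 loci and 10.2% and 0.863% of the abundant ones. With equal summed FPKM no member was past 2-fold lower, and when scaled to Gapdh1 3 were, Mgstl included. The members' median was -0.47 against -0.04 for all loci and -0.26 for the abundant ones. With paraquat in aged flies 0 members were past 2-fold in either direction, beside 1.85% lower and 1.46% higher among 8691 loci (0.864% and 0.36% of the abundant ones), a share near the background. The members' median there was -0.08, the same as for all loci. With age in paraquat 3 of the 10 were past 2-fold lower (Mgstl, se and GstT4) and 0 past 2-fold higher, beside 13.7% and 6.46% of 8895 loci. Of the abundant loci, which do not include se, 28.2% were past 2-fold lower there, near the members' share, and 2.81% past 2-fold higher. This balance depended on scaling, with 1 member lower and 3 higher with equal summed FPKM and 1 lower and 4 higher when scaled to Gapdh1.

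**Figure D3:**
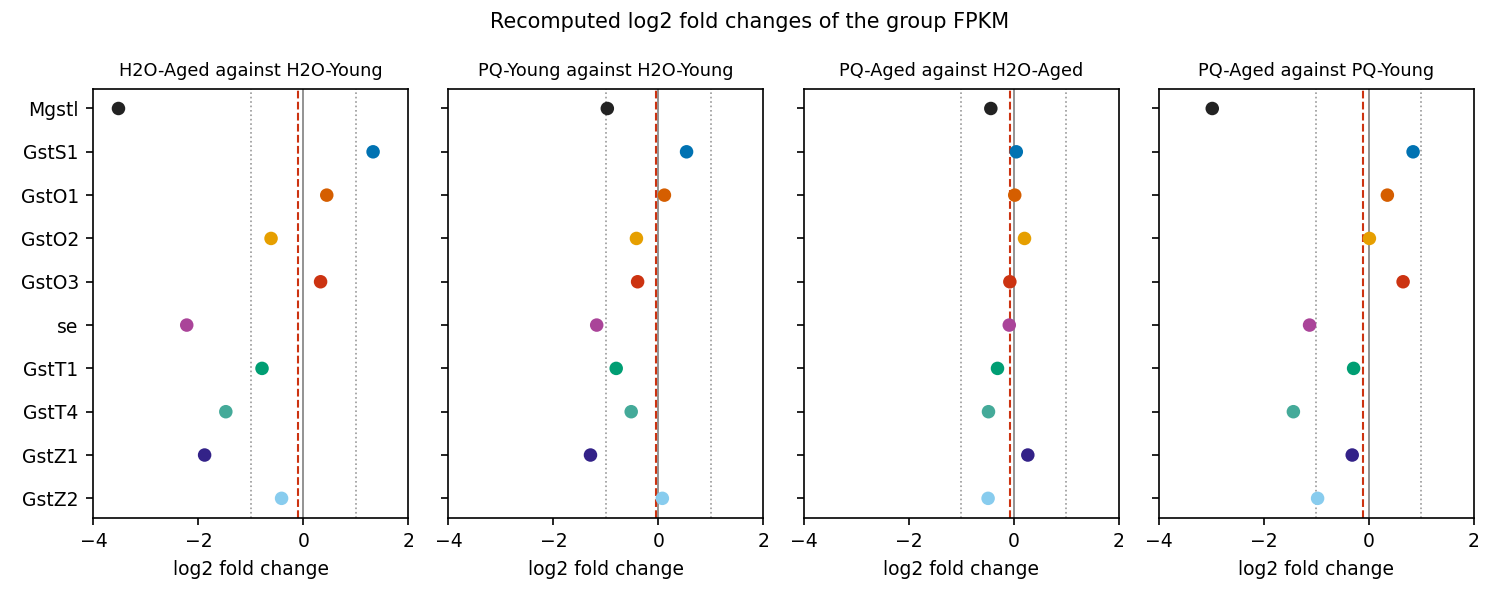
Recomputed log2 fold changes of the 10 genes in the 4 comparisons (horizontal axis, first group named over the second), with dotted lines at 2-fold and a red dashed line at the median of all loci. The panels on age hold most of the points past 2-fold, with Mgstl at -3.52 and -2.98, and the panel on paraquat in aged flies holds none.

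The comparison of age in water and that of paraquat in young flies share the libraries of young controls, so their values for the members are given without a measure of likeness. The log2 fold changes in that order were -3.52 and -0.97 for Mgstl, -2.22 and -1.18 for se and -1.88 and -1.30 for GstZ1. For GstT1 they were -0.79 and -0.81, and for GstS1 1.33 and 0.53. The comparisons of age in water and of age in paraquat share no library. Of the 10 members 9 had the same sign in both, as did 77.1% of all loci, and Mgstl, se and GstT4 were past 2-fold lower in both, as were 10.3% of loci. GstO2 was the exception in sign, at -0.61 and 0.01.

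The response to paraquat was also set against age gene by gene. The log2 fold change in aged flies minus that in young flies was 1.57 for GstZ1, above 95.4% of loci, and 1.09 for se, above 90.8% of loci. It was 0.63 for GstO2, 0.54 for Mgstl, 0.50 for GstT1, 0.33 for GstO3 and 0.04 for GstT4, and it was -0.09 for GstO1, -0.48 for GstS1 and -0.56 for GstZ2. The difference was above 0 for 7 members and below 0 for 3, beside 48.6% of 9149 loci above 0. These counts turned on scaling, with 10 members above 0 when scaled to Gapdh1 (82.1% of loci), 5 with equal summed FPKM (26.6%) and 4 after quantile normalization (45.3%), where Mgstl was at -0.35. GstZ1, se, GstO2 and GstT1 were above 0 in each of these scalings. With 1 pooled value per group it could not be tested. For Mgstl, se and GstZ1, the members with the lowest young paraquat values against water, the level in aged controls was below that in young paraquat flies. The same held for GstO2 (181 and 208 FPKM), GstT4 (75.2 and 146) and GstZ2 (1.78 and 2.50). The differences of these genes ran from 0.63 to -0.56. The part of the level in aged controls in these differences was not tested.

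Mgstl made up most of the summed FPKM of all GST genes in young flies but not in aged flies. Over 37 GST genes of all classes the summed FPKM was 37874 in young controls, 21887 in young paraquat flies, 10584 in aged controls and 9483 in aged paraquat flies. Without Mgstl it was 7046, 6198, 7899 and 7495, which in water is 1.12 times higher in aged flies as deposited but 2.46 times with equal summed FPKM and 2.41 times after quantile normalization. Mgstl took 81.4% of the GST total in young controls and 71.7% in young paraquat flies, and 25.4% in aged controls and 21.0% in aged paraquat flies. Quantile normalization moved the shares of controls to 76.7% and 27.7%. The Omega share was 6.77%, 8.90%, 28.5% and 30.7% in that order, the Theta share 2.35%, 3.10%, 4.16% and 3.96%, the Zeta share at most 0.243% and the Sigma share 0.0593% to 0.616%.

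**Figure D4:**
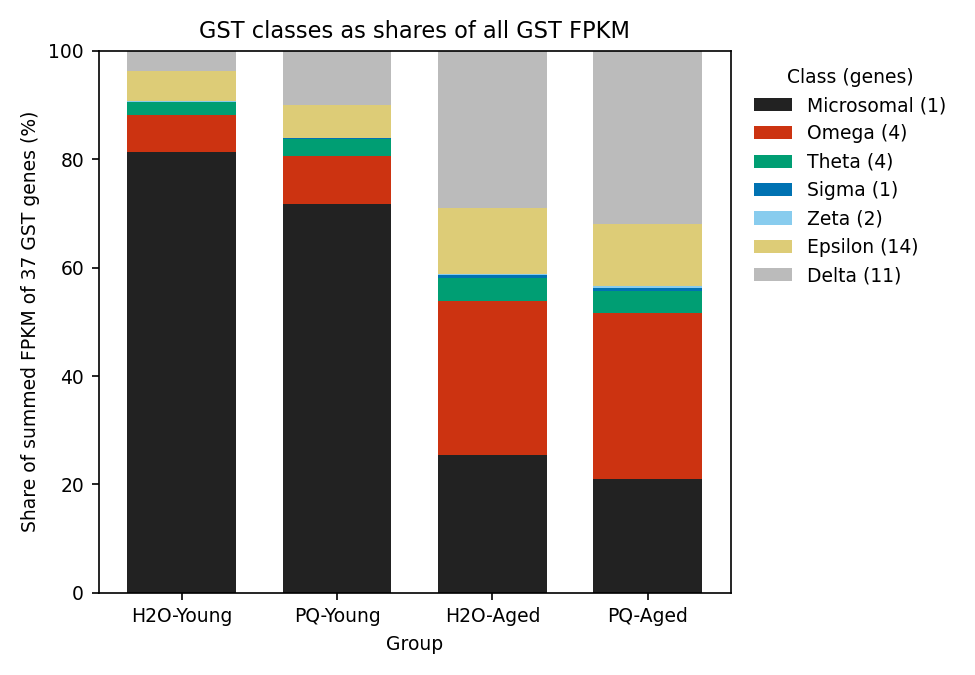
Shares of the GST classes in the summed FPKM of 37 GST genes (percent, bars stacked to 100) in the 4 groups, from 1 pooled value per gene and group, with the number of genes per class in the key. The microsomal share is 81.4% in H2O-Young and 21.0% in PQ-Aged, and the Omega and Delta shares are larger in the aged flies.

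Against one other gene in the same group, Mgstl stood 14.0 times above GstO3 in young controls and 9.37 times in young paraquat flies. In the aged flies GstO3 was the more abundant, with Mgstl at 0.970 times GstO3 in aged controls and 0.755 times in aged paraquat flies. The 2.06-fold excess of GstT1 over GstS1 in aged controls was 8.94-fold in young controls. A constant scaling of a group leaves these ratios as they are, and quantile normalization gave 11.8, 9.39, 0.970 and 0.682 for Mgstl over GstO3 and 6.92 and 2.32 for GstT1 over GstS1 in young and aged controls.

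The Delta and Epsilon classes, whose members lie outside the 10, differed among themselves. Of 10 Delta genes compared, 6 were past 2-fold higher with age in water and 1 lower, with a median log2 fold change of 1.28. Of 14 Epsilon genes, 3 were past 2-fold higher and 5 lower, beside 13.5% higher and 23.4% lower of all loci, with a median of -0.10, which turns above 0 with equal summed FPKM. The Delta share of the GST total was 3.75% in young controls and 29.1% in aged controls. GstD1, the most abundant Delta gene, had 981 FPKM in young controls, 1536 in young paraquat flies, 1948 in aged controls and 2008 in aged paraquat flies, below GstO3 in every group.

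The genes that supply glutathione were read next. Of 4 compared with age in water none was past 2-fold, with a median log2 fold change of 0.04. Of all loci, 23.4% were past 2-fold lower there and 13.5% past 2-fold higher. Gclm, the modifier subunit of the glutamate-cysteine ligase that makes the glutathione precursor, had 162 FPKM in young controls, 184 in young paraquat flies, 175 in aged controls and 234 in aged paraquat flies. Gclc, its catalytic subunit, had 23.4, 18.8, 32.7 and 41.0 FPKM and was past 2-fold higher with age in paraquat, as were 6.46% of all loci. The glutathione synthase genes Gss1 and Gss2 are near-identical copies that share 2 loci listed at or near 0, so their level is uncertain. PHGPx, a glutathione peroxidase homologue, had 6371 FPKM in young controls and 3644 in aged controls, within 2-fold. It was 1 of 5 thiol reduction genes compared. Of these, only Grx5 was past 2-fold with age in water, lower at a log2 fold change of -1.27. With age in paraquat only Trx-2 was past 2-fold, higher at 1.39. Of the CncC regulators of detoxification genes, cnc and Keap1 were within 2-fold with age in water, and maf-S, the small Maf partner, was at -1.67 on the log2 scale.

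As the summed FPKM of the aged groups was less than that of the young ones, setting the sums equal moved the median of all loci with age in water by 1.18 log2 units, while the other scalings moved it by 0.16 to 0.39. Of the 10 members, 7 kept the sign of their fold change with age in water under all 4 other scalings, and Mgstl, GstS1 and se stayed past 2-fold in each. GstO1 and GstO3 stayed above 0 in each, reaching log2 fold changes of 1.58 and 1.77. GstO2, GstT1 and GstZ2 changed sign. With paraquat in young flies 7 kept their sign, GstO2, GstO3 and GstZ2 did not, and no member was past 2-fold in every scaling. With paraquat in aged flies 4 kept their sign (GstS1, GstO1, GstO2 and GstZ1). With age in paraquat 7 kept their sign, GstT1, GstZ1 and GstZ2 did not, and Mgstl was the 1 member past 2-fold in every scaling.

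**Figure D5:**
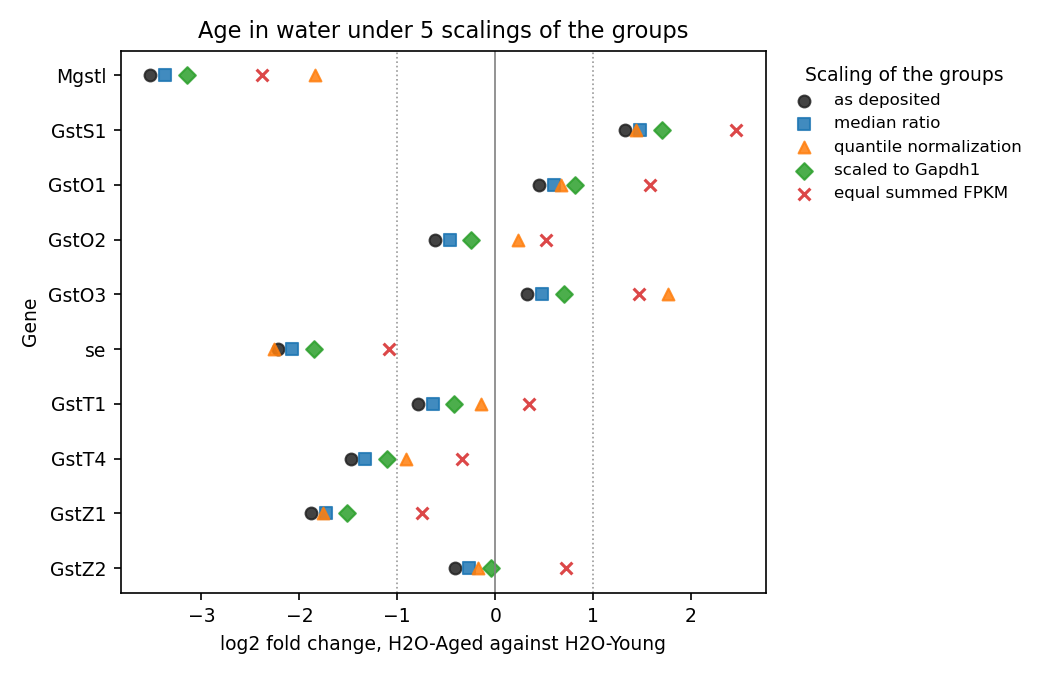
Log2 fold change with age in water (horizontal axis) of the 10 genes as deposited and under 4 other scalings of the groups, with dotted lines at 2-fold. Mgstl and se lie below the lower line and GstS1 above the upper one under all scalings shown, while GstO2, GstT1 and GstZ2 cross 0.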

How the data were processed

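The authors sequenced poly(A) RNA from anti-FLAG pull-downs with a directional kit and single-end reads. Per the labels, TopHat2, Cufflinks and Cuffdiff on dm6 made the deposited FPKM table, with 1 pooled value per locus and group. The authors' columns of fold change, test statistic, p, q and significance were not used. RefSeq identifiers were mapped to symbols for 16048 of 16191 loci. Coordinates and exons came from Ensembl 115 (BDGP6), 1-based. Analysis used Python 3.11.15, pandas 2.3.3 and numpy 2.4.6. A locus was compared with at least 1 FPKM in one group and above 0 in both, and past 2-fold was counted over protein-coding loci. A limma fit was planned for values per library; since the table pools 3 libraries, none was run. All members were named, with 2 nearest profiles per class among loci of at least 10 FPKM, listed pathway genes and adjacent genes. Members and lists were chosen with earlier results of these data known. Counting was tested on simulated data. Alternatives covered scaling, threshold, filter, pseudocount and summing loci.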

Additional observations from a re-analysis of the deposited data

How the results depend on the processing

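Scaling to equal summed FPKM gave, with age in water, 3 members past 2-fold higher (GstS1, GstO1 and GstO3) and 2 lower (Mgstl and se), with paraquat in young flies 0 lower, and with age in paraquat 3 higher (GstS1, GstO1 and GstO3) and 1 lower (Mgstl). Scaling to Gapdh1 gave 4 higher (GstS1, GstO1, GstO2 and GstO3) and 1 lower (Mgstl) with age in paraquat, where it moved the median of all loci by 1.04 log2 units, and 3 lower with paraquat in young flies (Mgstl, se and GstZ1). Quantile normalization gave 2 higher (GstS1 and GstO3) and 3 lower, without GstT4, with age in water and 2 higher with age in paraquat. A 1.5-fold threshold gave 6 lower with age in water, 4 lower with paraquat in young flies (Mgstl, se, GstT1 and GstZ1), and 2 higher with age in paraquat (GstS1 and GstO3). Median-ratio scaling, no filter on low values, a pseudocount of 1 and summing the loci of a symbol moved no count. Of 40 member fold changes per setting, the direction or side of the threshold moved for 18 with equal summed FPKM, 17 with Gapdh1, 8 with quantile normalization and 7 with the 1.5-fold threshold, and for 0 with the others, of which no filter and summing loci could not alter a member's value. The background over loci of at least 100 FPKM, the ratios within a group and the muscle sum without up were chosen after seeing the data. No paired analysis was possible because the table pools the 3 libraries of each group, and leaving out a replicate was not run for the same reason.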

Other observations

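Genes next to the other members were also read. foi, a zinc transporter gene that flanks the Omega genes, had 5.87 FPKM in young controls and 12.8 in aged controls (log2 fold change 1.13). CG16779, beside the Zeta genes, had 2.91 and 1.16 FPKM (log2 fold change -1.32). CG1998, beside GstT4, had 22.7 and 12.0 FPKM (log2 fold change -0.92). CG12926, which overlaps GstT2, had 15.8 and 32.1 FPKM (log2 fold change 1.02). The profiles nearest to GstZ1 were those of CG17261 and CG45080, at distances of 0.124 and 0.142 log2 units, and both were lowest in aged controls. CG45080 had 8136 FPKM in young controls, 3774 in young paraquat flies, 2320 in aged controls and 2937 in aged paraquat flies.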
